A study of Mus musculus with 8 samples.

Results

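The genes described here encode the working parts of the lysosome, and all 44 of them were found by symbol among the 24982 genes of the deposited count table. They comprise 13 proteases, 10 enzymes that remove sugars or sulfate groups, 5 soluble proteins that act on lipids, 7 proteins of the lysosomal membrane and 9 subunits or partners of the proton pump. RNA was sequenced from fibroblasts grown out of the tail tendons of C57Bl/6 mice, in 4 libraries labelled Scx+ (Scx-positive replicates 2, 3, 5 and 6) and 4 labelled Scx- (Scx-deleted replicates 2, 3, 4 and 5). Scleraxis, the product of Scx, is a transcription factor that marks tendon cells and their precursors, and the series asks which mRNAs differ once it is deleted. Every library, controls included, is labelled as treated with 4HT, the usual short form of 4-hydroxytamoxifen. The sources used here do not give the driver of the deletion, the deleted part of Scx, the age of the mice or the number of animals and cultures. Values per library are given below in the order of those replicate numbers, as CPM, the counts of a gene scaled to library size with edgeR's TMM factors.

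Lysosomes are acidic organelles in which proteins, glycans, glycolipids and lipids taken up from outside the cell or delivered by autophagy are broken down. The vacuolar ATPase pumps protons into the lumen, the soluble hydrolases work at the resulting low pH, and membrane proteins shield the limiting membrane and export the products. Many lysosomal genes carry a short palindromic promoter element, the CLEAR element, around an E-box core, and are bound there by the MiT family of transcription factors (TFEB, TFE3, MITF). Fibroblasts use lysosomes to degrade internalised collagen, and cathepsin K is a lysosomal protease that can cut the collagen triple helix.

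The core of that element is the palindrome CACGTG. It was searched on both strands in RefSeq promoters of the build GRCm38.p6, from 250 bases before to 50 after each start, which were given for 36 of the 44 genes. At least 1 match was found in the promoters of 15 of these 36 genes (41.7%), against 2187 of all 27025 genes with a promoter in that table (8.09%). The longer string TCACGTG, which contains the core, was found for 13 of the 36 (36.1%) and for 1160 of all 27025 (4.29%). Among the 25 genes with a promoter that were higher in Scx-deleted cells (by the test given further on) 11 held the core. Among the 8 that were not called 3 did, Gaa, Glb1 and Lgmn, and among the 2 that were lower 1 did, Ctsf. Lamp1 held the most copies, 4. Among 100 other genes of lysosomal and autophagy lists with a promoter 18 held TCACGTG. These counts describe letters in a window and no binding was measured. The promoters of Gla, Atp6v1a and Atp6v0d1 are shown because these were the called genes with the smallest p among those with a TCACGTG match, and the capitals mark each match with the base that completes it on the other strand.
Gla, chrX:134600956-134601255, minus strand: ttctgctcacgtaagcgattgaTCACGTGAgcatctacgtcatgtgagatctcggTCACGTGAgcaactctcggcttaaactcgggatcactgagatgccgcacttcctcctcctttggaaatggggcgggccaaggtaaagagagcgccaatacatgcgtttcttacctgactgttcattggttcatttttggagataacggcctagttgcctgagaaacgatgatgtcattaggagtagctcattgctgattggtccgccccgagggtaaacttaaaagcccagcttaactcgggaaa
Atp6v1a, chr16:44139210-44139509, minus strand: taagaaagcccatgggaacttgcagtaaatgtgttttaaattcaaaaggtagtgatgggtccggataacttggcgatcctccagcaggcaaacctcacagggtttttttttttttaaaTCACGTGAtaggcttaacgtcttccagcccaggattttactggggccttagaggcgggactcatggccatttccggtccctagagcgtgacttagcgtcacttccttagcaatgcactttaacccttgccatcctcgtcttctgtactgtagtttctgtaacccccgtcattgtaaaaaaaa
Atp6v0d1, chr8:105566015-105566314, minus strand: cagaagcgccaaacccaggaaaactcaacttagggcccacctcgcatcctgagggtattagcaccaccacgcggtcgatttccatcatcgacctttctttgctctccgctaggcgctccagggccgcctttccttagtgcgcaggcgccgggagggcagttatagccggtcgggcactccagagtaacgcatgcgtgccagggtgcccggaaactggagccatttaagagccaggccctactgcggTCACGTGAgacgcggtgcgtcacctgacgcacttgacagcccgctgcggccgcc
The core starts 227 and 194 bases before the start of Gla, 131 before that of Atp6v1a and 3 before that of Atp6v0d1. In all 3 the match reads the same on both strands over its full length.

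The libraries held 17343228 to 25180790 gene counts. The targeted gene Scx had 177, 132, 252 and 156 counts with the Scx+ label and 3, 1, 2 and 3 with the other, as the labels say. Of 11 tendon and fibroblast markers 10 were detected in every library and Kera had 0 counts throughout; apart from the deleted gene itself 8 of 9 tested, Col1a1, Dcn and Tnmd among them, were lower in Scx-deleted cells, while Mkx was not called (0.00 on the log2 scale). Of 13 macrophage and leukocyte markers 8 had at most 10 counts in every library, among them Ptprc, Adgre1, C1qa and Tyrobp. The summed level of the 13 ranged from 22.6 to 25.0 CPM in Scx-positive and from 24.4 to 28.1 CPM in Scx-deleted libraries. Cd14 alone held 13.4 to 15.0 CPM and 14.2 to 16.1 CPM of these sums, which therefore say little of the other markers. Of these markers Csf1r (0.70 on the log2 scale) and Cd68 (0.59), itself a lysosomal glycoprotein, were higher, Mrc1 (-0.72) was lower, and 2 other tested ones did not pass the test. Of 9 osteoclast markers Calcr, Dcstamp and Siglec15 had 0 counts in every library and 0 of the 4 tested were called. Among endothelial, skeletal muscle and mural markers 2 of 8 tested were higher (Kdr, Cspg4) and 3 lower (Acta1, Rgs5, Notch3), and the summed mural markers, nearly all of them Cspg4, ranged from 255 to 320.5 CPM and from 378 to 399 CPM. The part of these cell types in the results below was not tested. On the second principal component (12.9% of the variance) Scx-positive replicate 5 lay away from its group, and results that change without it are given below.

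In Scx-deleted cells most of the lysosomal genes were expressed at a higher level. Of the 42 genes with enough counts to be tested 30 were higher and 2 lower by edgeR's quasi-likelihood test at a Benjamini-Hochberg adjusted p under 0.05 over all 13125 genes, while 10 were not called. The corresponding background was 14.0% of all genes higher and 14.5% lower, against 71.4% and 4.76% of the lysosomal genes tested. The changes were small. The median log2 change of Scx-deleted over Scx-positive cells was 0.27 over the 42 genes and -0.01 over all genes tested. Among the 30 that rose it ranged from 0.16 to 1.09, 18 rose by at least 1.25-fold, 4 by at least 1.5-fold and only Gla by at least 2-fold. For 30 of the 42 no value of one group fell within the other, against 29.1% of all genes: every Scx-deleted library lay above every Scx-positive one for 28 (14.8% of all genes) and below for 2, Ctso and Ids (14.3% of all genes). Since whole cultures were measured, a change in the level per cell and a change in the share of cells that express a gene cannot be told apart.

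**Figure D1:**
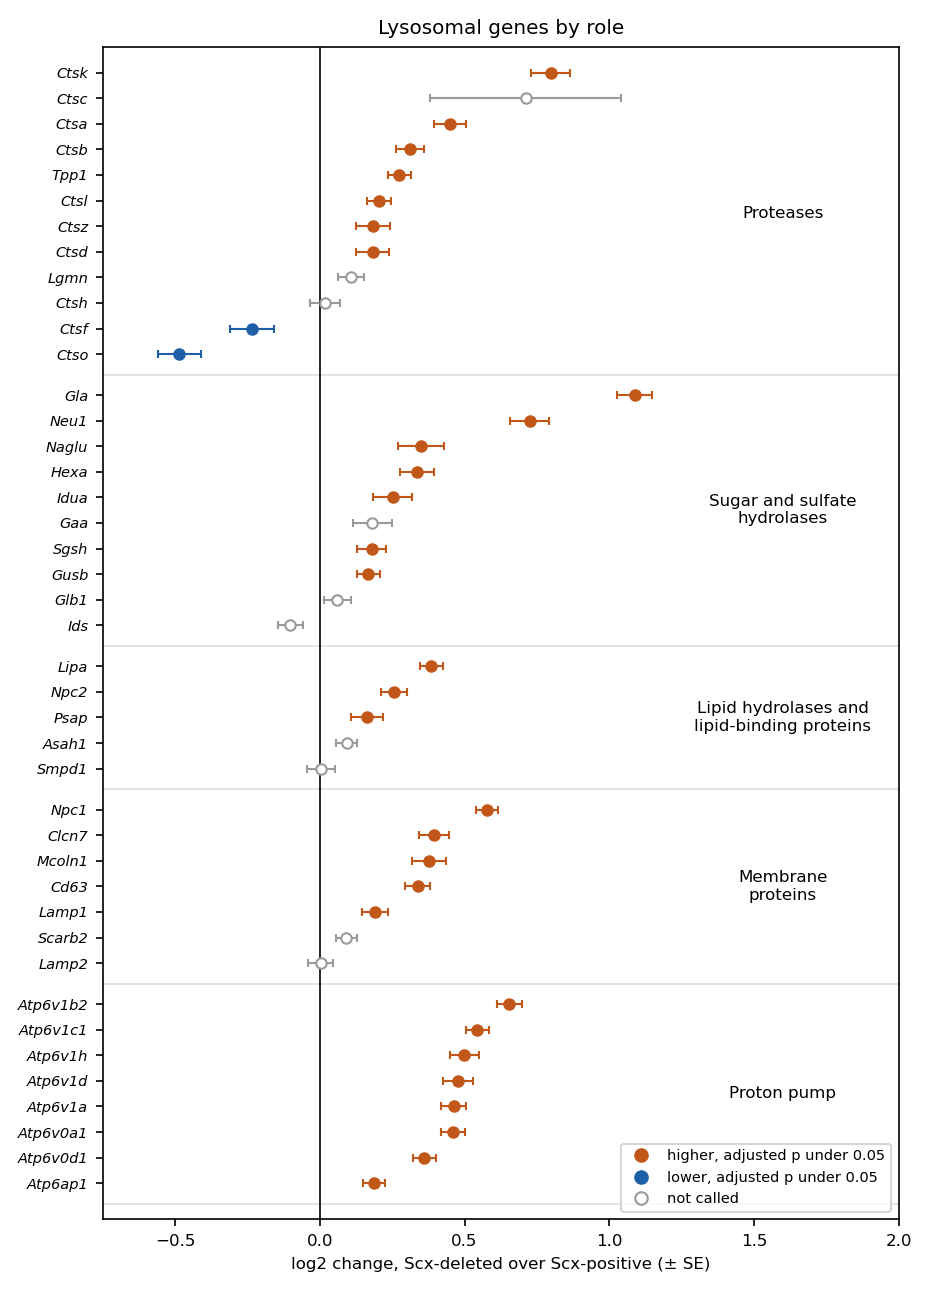
Log2 change of Scx-deleted over Scx-positive cells (x axis, points with SE) for the 42 tested genes (y axis), grouped by role and ordered by change within each group. Filled points passed the test. All 8 proton pump genes lie above 0 and Gla is at 1.09. The 2 genes that were lower, Ctso and Ctsf, are proteases, and the groups of Ctsf overlap.

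The Scx-positive library 5 held the highest of the 4 Scx-positive values for 26 of the 42 genes, and this was unevenly spread over the roles: 10 of 12 proteases and 7 of 10 sugar and sulfate hydrolases, but 2 of 8 pump genes. With it left out 35 were higher and 3 lower, against 18.3% and 17.5% of all genes. The additional calls were Gaa, Lgmn, Glb1, Asah1 and Scarb2 (higher) and Ids (lower). In the Scx-deleted group the highest value was in replicate 4 for 19 genes and in replicate 5 for 17.

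Among the proteases 7 of 12 tested were higher and 2 lower. Ctsk (ENSMUSG00000028111.4, chromosome 3, 95499256 to 95509362, plus strand) encodes cathepsin K, the collagenolytic cysteine protease best known from bone resorption. It stood at 148, 157, 162 and 129 CPM in Scx-positive and 235, 253, 271 and 276 CPM in Scx-deleted libraries. The groups were well separated, and the gene rose by 0.80 ± 0.07 (SE) on the log2 scale (adjusted p = 4.54e-07). Ctsa encodes cathepsin A, a carboxypeptidase that also protects the galactosidase and the neuraminidase encoded by Glb1 and Neu1. Its values were 426, 435, 491 and 408 CPM with Scx and 582, 574, 635 and 613 CPM without it, a rise of 0.45 ± 0.05 (SE). Tpp1, which encodes the aminopeptidase tripeptidyl peptidase, stood at 388, 377, 409.6 and 376 CPM and 467, 458, 474 and 477 CPM. Ctsb, the gene of the abundant cysteine protease cathepsin B, went from 803 ± 46.4 to 997 ± 44.6 CPM (SD, n = 4 each). Both rose in non-overlapping groups, by 0.27 and 0.31. Ctsl, the gene of cathepsin L, ranged over 607 to 653 CPM with Scx and 709 to 756 CPM without it and rose by 0.20 ± 0.04 (SE) (adjusted p = 0.00142).

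Cathepsin D, an aspartic protease, had the highest level per length of the whole set, 652 CPM per kilobase of its longest annotated coding transcript in Scx-positive cells. Ctsd stood at 1313, 1335, 1564 and 1333 CPM and at 1569.6, 1485, 1651 and 1583 CPM in the 2 groups, which overlapped through Scx-positive library 5. Its log2 change of 0.18 ± 0.06 (SE) passed the test (adjusted p = 0.0229). Ctsz, the gene of a carboxypeptidase of the papain family, also overlapped and rose by 0.18 ± 0.06 (SE) (adjusted p = 0.0306). Both calls were lost without Scx-positive replicate 2, 3 or 6 or without Scx-deleted replicate 4 or 5, with an adjusted p of 0.0531 to 0.0809 for Ctsd and 0.0754 to 0.092 for Ctsz, and Ctsz lost its call also without Scx-deleted replicate 2 (adjusted p = 0.0624).

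The proteases did not all move one way. The 2 that were lower are 16.7% of those tested, near the 14.5% lower among all genes tested. Ctso, which encodes the poorly characterised cathepsin O, fell in every Scx-deleted library, from 34.2, 32.5, 31.6 and 27.6 to 25.0, 21.6, 21.0 and 22.3 CPM, a log2 change of -0.49 ± 0.07 (SE) with an adjusted p of 0.000151. Ctsf, the gene of cathepsin F, changed by -0.24 ± 0.07 (SE) with overlapping groups (adjusted p = 0.0275), and its call was lost when Scx-positive replicate 2 or Scx-deleted replicate 2, 3 or 4 was left out (adjusted p from 0.0575 to 0.091). Their levels per length in Scx-positive cells were 9.07 and 23.3 CPM per kilobase, against 98.5 for Ctsk. Ctsh, which encodes an aminopeptidase, had a log2 difference of 0.02 ± 0.05 (SE), and Lgmn, the gene of the asparaginyl endopeptidase legumain, one of 0.11 ± 0.05 (SE). Neither passed the test with all libraries, although Lgmn had an adjusted p of 0.00286 without Scx-positive replicate 5. Ctsc, the gene of the dipeptidyl peptidase that activates granule proteases in leukocytes, stood at 3.72, 3.48, 2.98 and 3.98 CPM and 3.75, 4.12, 12.4 and 3.60 CPM, with Scx-deleted replicate 4 far above the rest. Its log2 difference was 0.71 ± 0.33 (SE) (adjusted p = 0.122), and 0.11 without that library (adjusted p = 0.608). In that library the endothelial marker Emcn had 19 counts against 0 to 3 in the other 7 libraries, and Csf1r had 74 counts against 33 to 63. Kdr (3.77 CPM), Cdh5 (2.26 CPM) and Cd14 (16.1 CPM) were also highest there. Pecam1 and Tie1 had 1 count each there, Ptprc, Fcgr3 and Itgam 1 to 3, and Adgre1, C1qa, C1qb, Tyrobp and Aif1 had 0. Cd68, Lyz2 and Mrc1 lay within the range of the other libraries. The part of these markers in the Ctsc value was not tested. Ctss, the cathepsin of antigen-presenting cells, had 3, 0, 0 and 3 counts with Scx and 0, 3, 1 and 2 without it and was not tested; at this depth no difference was detectable.

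**Figure D2:**
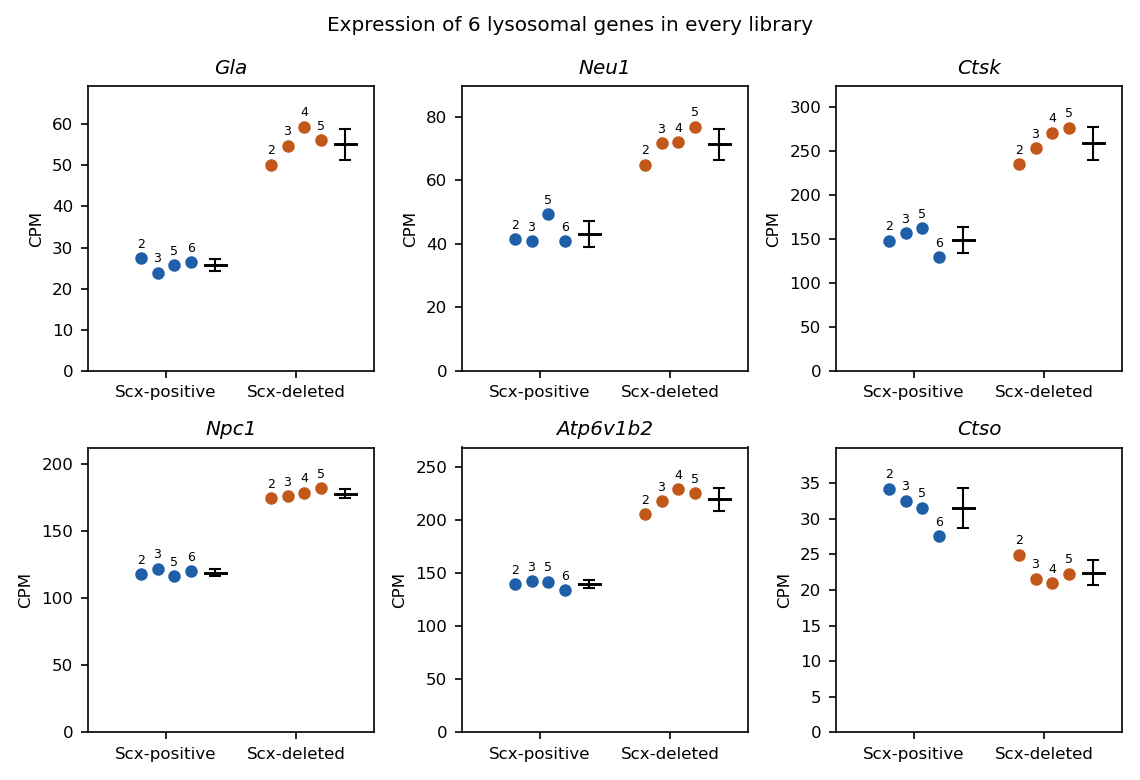
CPM (y axis, from 0) of 6 lysosomal genes in the 4 Scx-positive (blue) and 4 Scx-deleted (orange) libraries, numbered by replicate, with the mean and SD of each group at the right. The groups do not overlap in any of the 6 panels, and Ctso is the gene whose Scx-deleted values lie below.

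The glycan-degrading enzymes held the largest change among the 42 tested genes. Gla (ENSMUSG00000031266.6, chromosome X, 134588149 to 134601125, minus strand) encodes alpha-galactosidase A, which removes terminal galactose from glycolipids and is deficient in Fabry disease. Gla stood at 27.4, 23.9, 25.8 and 26.4 CPM in Scx-positive and 50.1, 54.7, 59.4 and 56.0 CPM in Scx-deleted libraries, so that the lowest Scx-deleted value was far above the highest Scx-positive one. Its rise on the log2 scale was 1.09 ± 0.06 (SE) (adjusted p = 1.01e-08). Neu1 (ENSMUSG00000007038.5, chromosome 17, 34931253 to 34935953, plus strand) encodes the lysosomal sialidase, which works in a complex with cathepsin A. Its values were 41.4, 40.8, 49.4 and 40.9 CPM with Scx and 64.9, 71.7, 72.1 and 76.9 CPM without, and it rose by 0.73 ± 0.07 (SE) (adjusted p = 1.22e-06). Scx-positive library 5 was the highest of its group and still lay below every Scx-deleted library.

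Hexa, the gene of the alpha subunit of beta-hexosaminidase that is defective in Tay-Sachs disease, had the highest level per length of these 10 genes at 134 CPM per kilobase in Scx-positive cells. It went from 264, 255, 305 and 246 to 332, 321, 345 and 352 CPM and rose by 0.34 ± 0.06 (SE). Naglu encodes an enzyme of heparan sulfate breakdown and stood at 53.3, 49.3, 64.4 and 50.3 CPM, then at 65.2, 65.6, 68.2 and 78.1 CPM, a rise of 0.35 ± 0.08 (SE). In both, the lowest Scx-deleted library was close above Scx-positive library 5. Other genes of glycosaminoglycan breakdown had smaller rises. Gusb, the gene of beta-glucuronidase, had 173 to 187 CPM with Scx and 203 to 206 CPM without it and rose by 0.17 (adjusted p = 0.00393). Sgsh, the sulfamidase gene, had 75.9 to 90.6 CPM with Scx and 90.9 to 94.5 CPM without it and rose by 0.18 (adjusted p = 0.0157). Idua, the gene of alpha-iduronidase, rose by 0.25 with overlapping groups (adjusted p = 0.01). Ids, the sulfatase that acts next to Idua on the same chains, had a difference of -0.10 ± 0.04 (SE) in the opposite direction and was not called (adjusted p = 0.0952, and 0.03 without Scx-positive replicate 5), although its groups did not overlap. Gaa, the gene of the enzyme that degrades glycogen in lysosomes, just missed the threshold at 0.18 ± 0.07 (SE) (adjusted p = 0.059). It passed under 6 alternatives, among them DESeq2 (adjusted p = 0.0472), limma-voom (0.0486), no filter on low counts (0.0267) and the omission of Scx-positive replicate 5 (8.32e-06). Glb1, the gene of the beta-galactosidase used as a senescence stain, differed by 0.06 ± 0.05 (SE) and was not called (adjusted p = 0.36, and 0.0192 without Scx-positive replicate 5). In all, 7 of these 10 genes were higher and 0 lower.

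Of the 5 genes for soluble lipid-handling proteins 3 were higher and 0 lower. Lipa encodes lysosomal acid lipase, which frees cholesterol and fatty acids from lipoproteins. It stood at 220.1, 217, 210.0 and 207 CPM in Scx-positive and 271, 282, 274 and 289.7 CPM in Scx-deleted libraries and rose by 0.39 ± 0.04 (SE) (adjusted p = 2.98e-06). Npc2, the soluble protein that hands cholesterol to the membrane transporter NPC1, rose by 0.26 ± 0.04 (SE), from 464, 471, 512 and 457 to 556, 550.3, 593 and 574 CPM. Neither gene overlapped between groups. Psap encodes the precursor of the saposins, the activators of sphingolipid hydrolases, and was the most abundant gene of this group per length, at 471 CPM per kilobase with Scx. Its values of 1197, 1211, 1417 and 1184 and 1399, 1341, 1456 and 1415 CPM overlapped through Scx-positive library 5, with a log2 change of 0.16 ± 0.05 (SE) (adjusted p = 0.0354). This call was lost with the omission of each library other than Scx-positive 5 and Scx-deleted 3, with an adjusted p of 0.0663 to 0.107. The ceramidase gene Asah1 (0.09 ± 0.04 (SE), adjusted p = 0.066, and 0.0493 without Scx-positive replicate 5) and the acid sphingomyelinase gene Smpd1 (0.00, 0.969) were not called.

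At the membrane, 5 of 7 genes were higher and 0 lower. Npc1 (ENSMUSG00000024413.14, chromosome 18, 12189692 to 12236400, minus strand) encodes the transporter that exports cholesterol from lysosomes. The 2 groups were tight and far apart, at 118, 122, 116 and 120.0 CPM with Scx and 174, 176, 179 and 182 CPM without it, a log2 change of 0.58 ± 0.04 (SE) (adjusted p = 4.16e-08). Clcn7, the gene of the chloride-proton exchanger, stood at 111, 102, 121 and 105 CPM and 144, 137, 144 and 151 CPM, and Mcoln1, the gene of the calcium channel mucolipin 1, at 59.3, 64.2, 73.1 and 60.0 CPM and 81.6, 81.9, 84.9 and 85.1 CPM. They rose by 0.40 ± 0.05 (SE) and 0.38 ± 0.06 (SE). Cd63, a tetraspanin of late endosomes and exosomes, rose by 0.34 ± 0.04 (SE), from 391, 416, 417 and 395 to 503, 495, 546 and 503 CPM.

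The main structural glycoproteins of the membrane differed in their values. Lamp1 had the highest level per length of the membrane genes, 501 CPM per kilobase with Scx, and stood at 1078, 1082, 1202 and 1105 CPM and 1264, 1231, 1334 and 1274 CPM. It rose by 0.19 ± 0.04 (SE) (adjusted p = 0.00459). Lamp2, whose protein is also the receptor of chaperone-mediated autophagy, had 504, 466, 456 and 492 CPM and 485, 479.9, 460.0 and 496 CPM, a difference of 0.00 ± 0.04 (SE) that was not called. With an offset for GC content and length the difference was 0.12 and was called (adjusted p = 0.0141). The difference between the 2 changes was not tested. Scarb2, which encodes a glycoprotein of the lysosomal membrane, had a difference of 0.09 ± 0.04 (SE) and an adjusted p of 0.0754 (0.042 without Scx-positive replicate 5), with groups that did not overlap.

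All 8 tested genes of the proton pump were higher in Scx-deleted cells, and none of the 8 overlapped between the groups. The vacuolar ATPase has a V1 part in the cytosol that splits ATP and a V0 part in the membrane that carries protons. Atp6v1b2, the ATP-binding B subunit in most tissues, stood at 139.6, 143, 142 and 134 CPM with Scx and 206, 218, 229.6 and 226 CPM without, a log2 change of 0.65 ± 0.04 (SE) (adjusted p = 4.35e-08). Atp6v1a, the catalytic A subunit, had 262, 251, 245 and 273 CPM and 338, 356, 364 and 363 CPM and rose by 0.46 ± 0.04 (SE). Atp6v1c1, the C subunit that joins the parts, went from 98.9, 99.5, 96.4 and 99.2 to 136, 146, 147 and 146 CPM, a rise of 0.54 ± 0.04 (SE). Scx-deleted replicate 2 was the lowest of its group for each of these 3 genes. The regulatory H subunit gene Atp6v1h had 119 to 139 CPM with Scx and 174 to 189 CPM without it and rose by 0.50 ± 0.05 (SE). Atp6v1d, which encodes part of the central stalk, had 98.2 to 112 CPM with Scx and 133 to 156 CPM without it and rose by 0.48 ± 0.05 (SE).

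In the V0 part, Atp6v0a1, a large membrane subunit that faces the proton path, stood at 116, 114, 121 and 123 CPM and 158, 163, 162 and 169 CPM and rose by 0.46 ± 0.04 (SE). Atp6v0d1, the ubiquitous d subunit whose promoter is shown above, had 200.3 to 216 CPM with Scx and 256 to 269 CPM without it and rose by 0.36 ± 0.04 (SE). Atp6ap1, an assembly partner of the pump, had the highest level per length of these genes at 184 CPM per kilobase with Scx and the smallest rise, 0.19 ± 0.04 (SE), from 396, 402, 417 and 393 to 449.7, 449.7, 466 and 464 CPM. Atp6v0d2, the d isoform known from osteoclasts and macrophages, was too low to be tested, with 4, 2, 0 and 1 counts where Scx was present and 4, 12, 9 and 6 where it was deleted, and a count of 4 occurred in both groups. Summed and scaled for depth, the ratio was 4.92 with an exact 95% interval of 2.13 to 13.2, which covers counting error only. Without the filter on low counts it was called by edgeR (adjusted p = 0.00713). At sums of 7 and 31 counts it was far below its paralog Atp6v0d1, which had 204 CPM with Scx and 125 CPM per kilobase against 0.0319.

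Summed over the genes of a role, the pump shifted most. Its 9 genes together went from 1456 ± 7.18 to 1931 ± 56.6 CPM (SD, n = 4 each), a ratio of 1.33. The proteases went from 4434 ± 289 to 5302 ± 194 CPM, the sugar and sulfate hydrolases from 1334 ± 106 to 1568 ± 47.7 CPM, the lipid group from 2686 ± 129.5 to 3036 ± 69.8 CPM and the membrane proteins from 2452 ± 61.1 to 2842 ± 61.3 CPM, ratios of 1.20, 1.18, 1.13 and 1.16. All 44 together took 12362 ± 576 CPM with Scx and 14679 ± 403 CPM without it. For each of the 5 sums every Scx-deleted library lay above every Scx-positive library. The sums are carried by abundant genes such as Ctsd, Psap and Lamp1 and say little of rare ones.

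**Figure D3:**
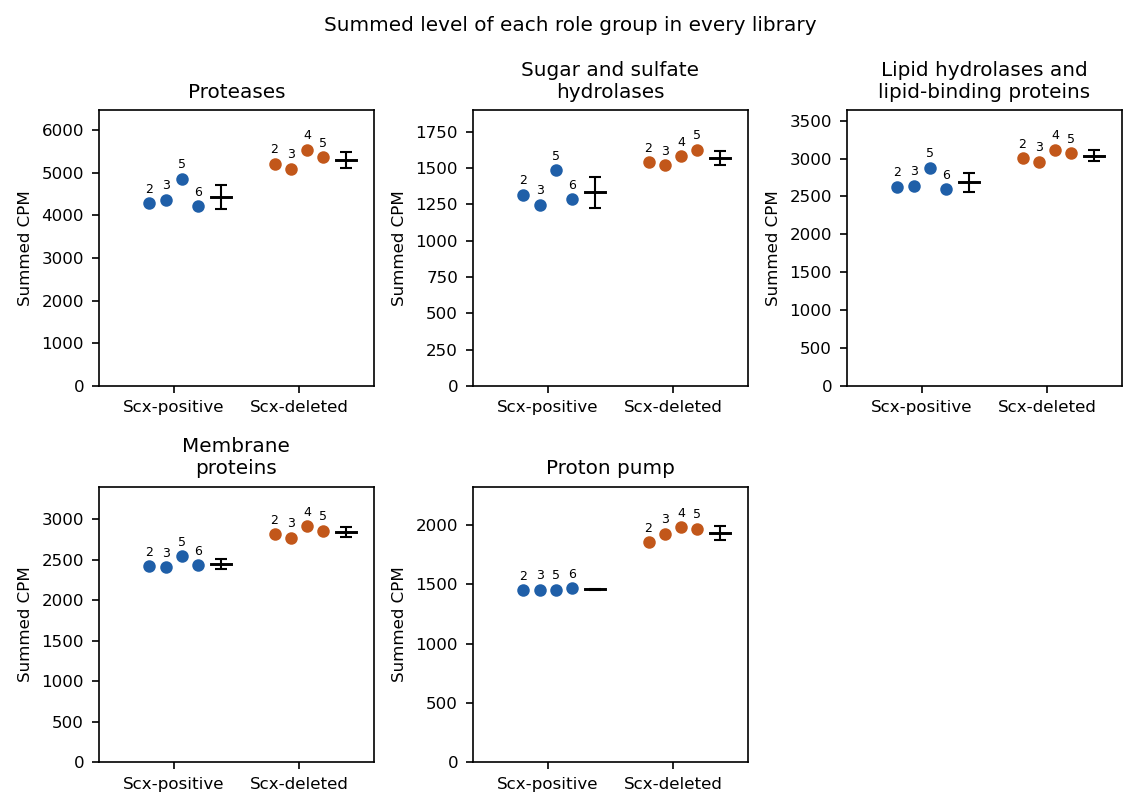
Summed CPM (y axis, from 0) of the genes of each role in every library, with replicate numbers and the mean and SD of each group at the right. Scx-positive replicate 5 is the highest of its group for the hydrolases, at 4859 CPM for the proteases, while the 4 Scx-positive pump sums lie between 1448 and 1466 CPM.

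Other genes of the lysosome were read from lists chosen for their function. Of 27 other hydrolases and activators tested 8 were higher and 0 lower, with a median log2 change of 0.08. Galc, the gene of the enzyme that degrades galactosylceramide, rose by 0.39 ± 0.04 (SE). Without Scx-positive replicate 5 the count that rose was 18, where 18.3% of all genes rose, against 14.0% with all libraries. With an offset for the genes' GC content and length it was 13, where 2851 of all 13024 genes rose. Of 19 other membrane proteins 11 were higher and 1 lower. The smallest p-values were those of the sialic acid transporter Slc17a5 (log2 change 0.46), the cystine transporter Ctns (0.39) and the amino acid transporter Slc36a1 (0.32). The gene that fell, Laptm4a, changed by -0.12 ± 0.04 (SE), was named after its value was seen, and lost its call when Scx-positive replicate 2 or 3 or Scx-deleted replicate 3, 4 or 5 was left out (adjusted p up to 0.0961).

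Of 11 other pump subunits tested 6 were higher and 0 lower. The proteolipid subunit gene Atp6v0b stood at 117, 119, 136 and 113 CPM and 183, 178, 196 and 189 CPM and rose by 0.62 ± 0.05 (SE), as did Atp6v1g1 by 0.49 and Atp6v1e1 by 0.41. Together with the 8 described above, 14 of 19 tested pump genes were higher and 0 lower. Of these, Atp6v0e (0.12) had overlapping groups and lost its call under 8 of the 17 alternatives. Atp6v0c was among the pump genes not called. It had only 17 to 34 counts in a library. The authors' deposited table has Atp6v0c as higher, with a log2 fold change of 0.33 ± 0.05 (SE). In the mannose 6-phosphate pathway, which tags hydrolases in the Golgi and sorts them to lysosomes, 6 of 15 genes were higher and 0 lower. The receptor gene Igf2r rose by 0.34 ± 0.04 (SE), from 449, 423, 439 and 444 to 527, 559, 578 and 564 CPM, the adaptor gene Ap3d1 by 0.24 and the sorting receptor gene Sort1 by 0.24.

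Genes listed as cathepsin inhibitors went both ways, with 4 of 6 tested higher and 2 lower. The tested cystatin genes all rose, Cst3 by 0.36 on the log2 scale. Of the serpin genes Serpinb6a rose by 0.17, and Serpinb1a and Serpinb9 (-0.34) fell. The list was not split by the proteases that each protein inhibits, so its counts do not stand for inhibitors of the proteases described above. The cystatin genes Cst6 and Cstb rose by 0.61 ± 0.05 (SE) and 0.43 ± 0.05 (SE). Serpinb1a, an intracellular serpin, went from 16.3, 19.1, 16.5 and 13.9 to 6.93, 6.55, 5.28 and 6.03 CPM, a change of -1.40 ± 0.11 (SE). Among autophagy genes 10 of 19 were higher and 1 lower. Sqstm1, the gene of the cargo receptor p62, stood at 585, 577, 661 and 604 CPM and 837, 801, 881 and 887 CPM and rose by 0.49 ± 0.05 (SE). Gabarapl1, a member of the LC3 family, rose by 0.35 and Uvrag by 0.36. Wipi1 was the one that fell (-0.12 ± 0.04 (SE), named after its value was seen), and its call was lost without Scx-positive replicate 2 or any 1 Scx-deleted replicate, with an adjusted p up to 0.0904.

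**Figure D4:**
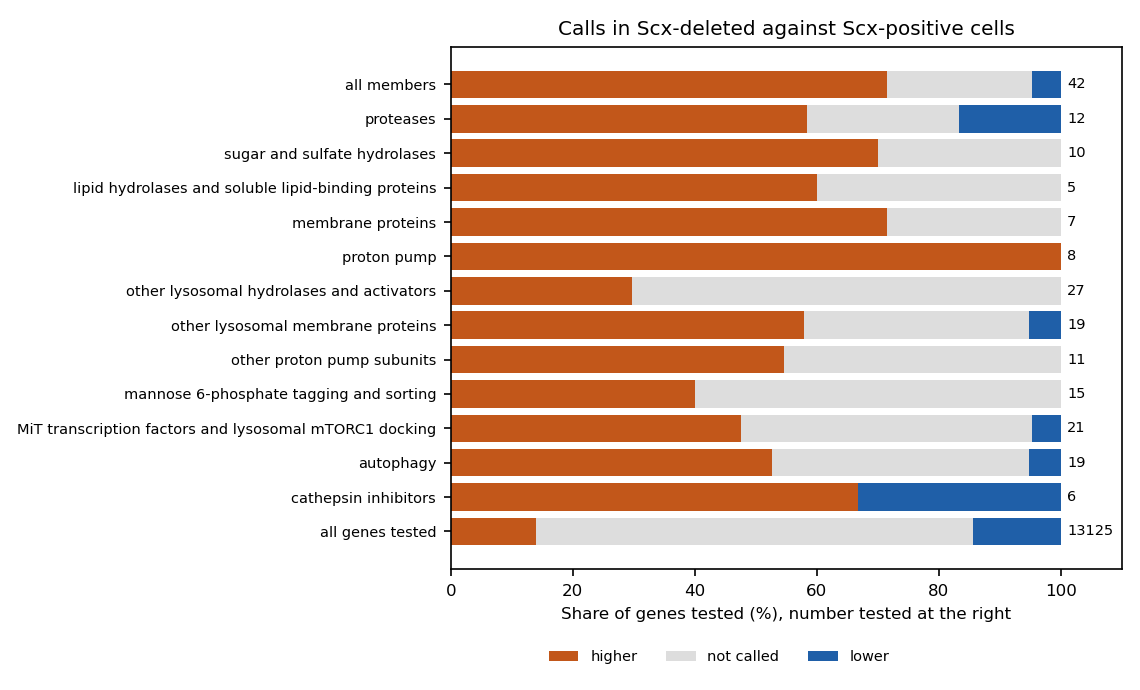
Share of tested genes (x axis, %) that were higher (orange), lower (blue) or not called (grey) in Scx-deleted cells, by role group and by list, with the number tested at the right. The lysosomal genes described above have 71.4% higher, the other hydrolases 29.6%, and all genes tested 14.0%.

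The factors that act on CLEAR elements did not move together at the mRNA level. Mitf stood at 28.6, 26.9, 25.0 and 21.9 CPM with Scx and 31.7, 33.2, 37.2 and 35.0 CPM without it and rose by 0.42 ± 0.08 (SE) (adjusted p = 0.000714). Tfeb was low, at 7.71, 5.99, 7.85 and 5.81 CPM and 4.71, 4.91, 5.92 and 4.68 CPM, with groups that overlapped. It fell by 0.45 on the log2 scale (SE 0.12, adjusted p = 0.0133), with an adjusted p of 0.0522 without Scx-positive replicate 2. Tfe3, the most abundant of the 3 per length at 23.8 CPM per kilobase with Scx, differed by 0.02 ± 0.05 (SE) and was not called. The location of these proteins in the cell, which controls their activity, is not measured by RNA sequencing.

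Genes of the machinery that docks the kinase complex mTORC1 to lysosomes held the largest rises among the genes of these other lists. Rragd, a Rag GTPase that recruits mTORC1 in response to amino acids, stood at 9.31, 8.19, 8.01 and 7.73 CPM in Scx-positive and 20.7, 22.6, 25.0 and 27.6 CPM in Scx-deleted libraries, a log2 change of 1.53 ± 0.10 (SE). Fnip2, a partner of folliculin in the complex that activates Rag GTPases, went from 58.2, 53.9, 54.1 and 53.8 to 99.3, 108, 111 and 115 CPM and rose by 0.98 ± 0.05 (SE). Both were higher in 4 of 4 Scx-deleted libraries than in any Scx-positive one. Tsc1, a subunit of the complex that inhibits mTORC1, rose by 0.40. Over the list of 21 genes, which includes the 3 MiT factors above, 10 were higher and 1, Tfeb, lower.

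**Figure D5:**
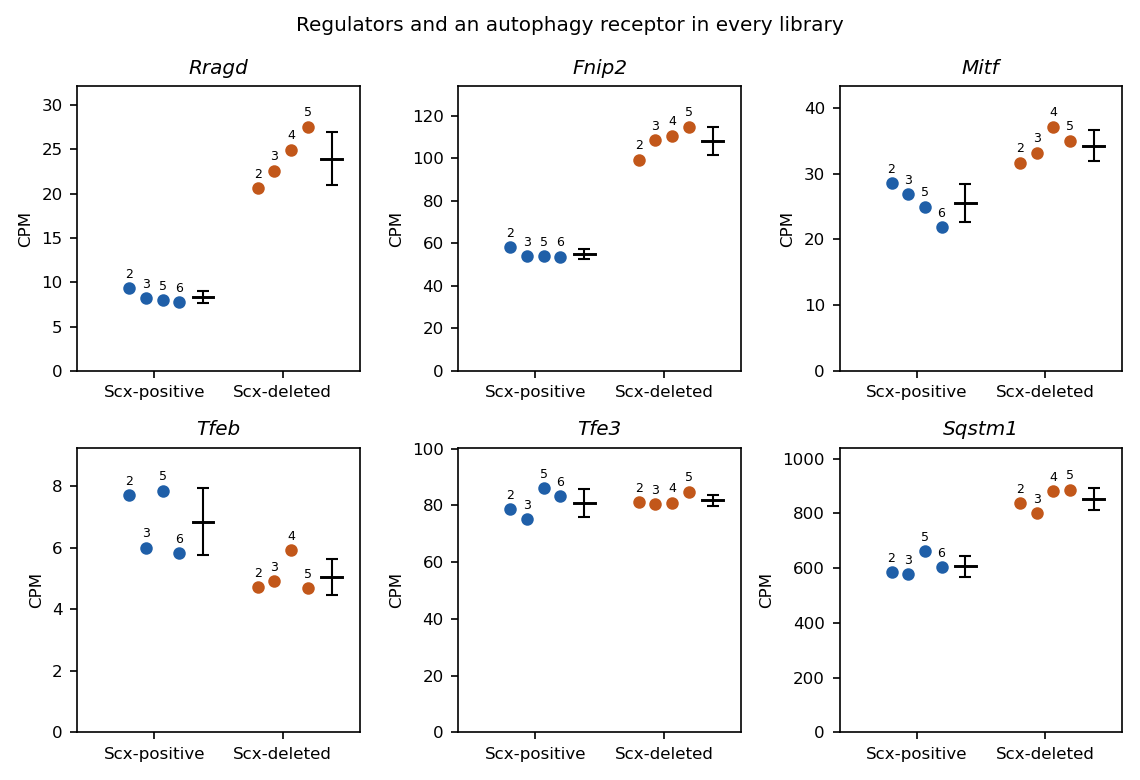
CPM (y axis, from 0) of the mTORC1-docking genes Rragd and Fnip2, the MiT factors Mitf, Tfeb and Tfe3, and the autophagy receptor Sqstm1 in every library, numbered by replicate, with the mean and SD of each group at the right. Rragd, Fnip2, Mitf and Sqstm1 do not overlap between groups, whereas Tfeb and Tfe3 do.

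The authors' deposited table of their own comparison lists 43 of the 44 genes, all but Ctss. At an adjusted p under 0.05 the authors' deposited table had 35 of them higher and 2 lower, where 15.1% and 14.1% of all its genes were. All 32 genes called here were called there in the same direction. In the authors' deposited table Gla had a log2 fold change of 1.09, Ctsk of 0.85, Atp6v1b2 of 0.68 and Ctso of -0.45. Gaa, Asah1, Lamp2, Scarb2 and Atp6v0d2 were called in the authors' deposited table only, Lamp2 with a log2 fold change of 0.11 and Atp6v0d2 with 2.42. Both analyses rest on the same 8 samples, so this is no independent replication. The authors' values cannot all come from the counts used here. Rnaset2a, of the other hydrolases, had 0 counts in every library. In the authors' deposited table it has a log2 fold change of 0.07 ± 0.10 (SE). Lamp1 has 0.31 ± 0.03 (SE) there against 0.19 here. Annotated exons of 11 of the 44 genes share over 100 bases with another gene, and whether the counting used strand is not given in the sources used here. Ctsb shares 774 of 6051 exonic bases with Fdft1 on the opposite strand, and Ctsd shares 808 of 2351 with Gm49369 on its own strand, so the counts of these genes are less certain.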

How the data were processed

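RNA was measured in 8 libraries, grouped by the genotype in their titles. Per the labels' protocols, total RNA was column-purified and treated with DNase, and library preparation was a standard Illumina one. STAR, DESeq2, FastQC and the build mm10 are named in the submitters' processing notes; what each did, its version, how reads were counted and on which annotation or strand is not given in the sources used here. The authors deposited whole-number counts per gene symbol, which fed every test. The rows for reads in no feature (7.44% to 8.67% of a library) and ambiguous reads (0.490% to 0.567%) were left out. The authors' deposited table of their comparison gives a log2 fold change, its standard error (a score here) and an adjusted p-value per gene, per the file headers. Its sign was checked against the counts to learn which group is the numerator. Its 2 group mean columns, whose names show no genotype, were not used.

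Counts were tested with edgeR 4.0.16 in R 4.3.3 (filterByExpr with a minimum count of 10 and total of 15, TMM, quasi-likelihood test on a model of group alone, Benjamini-Hochberg adjustment over 13125 genes, threshold 0.05). The standard error of a log2 change was taken as its size over the root of its F statistic. On counts simulated for this comparison over 13059 genes, with 200 changed, the fit recovered 53.1% of 1.25-fold, 88.4% of 1.5-fold and 98.5% of 2-fold changes, and 4.73% of its calls were false. In the data 28.5% of genes were called, a far larger share than was changed in the simulation, so these rates need not hold for the data. Gene positions and transcript lengths are from GENCODE mouse release 21 (GRCm38), which held all 44 symbols. Promoters are from RefSeq (GRCm38.p6), with none for Asah1, Atp6v0d2, Atp6v1b2, Atp6v1c1, Atp6v1h, Ctsb, Ctsh and Npc1. A protein comparison was planned and is not reported here.

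The genes, lists, tests and alternatives were chosen with earlier results of these data known, so the counts are descriptions and no p is given over a list. Values in every library are given for up to 4 called genes per role whose groups do not overlap, by smallest p, for the gene with the highest level per length in each role, and for Ctsk, Atp6v0d2, Ctss and Lamp1; Ctsc and Lamp2 were added after their values were seen. From each other list up to 3 called genes with the smallest p are named, with Rragd, Tfeb, Tfe3 and Mitf; some that this rule names are not reported here. Alternatives were other scalings (RLE, upper quartile), dropping the low-count filter or requiring 5 CPM in at least 4 libraries, limma-voom (limma 3.58.1), DESeq2 1.42.0, the replicate number as a block, an offset for the GC content and length of transcripts, and each library left out. The labels do not say whether the libraries of a group stem from separate mice or cultures; p-values then reflect only how these libraries vary, which may be technical. No pair of libraries of a group agreed within sampling noise, and each counted as a replicate. Counting intervals leave out other error, as reads that carry no molecular identifier are not independent molecules.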

Additional observations from a re-analysis of the deposited data

Results flagged for a closer look

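In 16 of 134 groups of 4 libraries, the highest or lowest value stood farther from the rest than Dixon's limit at 4 values allows. Chance does this in about 5% of independent groups. These 134 come from the same 8 libraries and are not independent, so the 16 are not separate outliers. In 7 of the 16 the outlying library was Scx-positive replicate 5, and it was high each time. Ctsd stood at 1564 CPM there against at most 1335 CPM in the other Scx-positive libraries. Ctsz stood at 309 CPM there against at most 256 CPM in the other Scx-positive libraries. Glb1 stood at 137 CPM there against at most 122 CPM in the other Scx-positive libraries. The same library held 49.4 CPM of Neu1 (next 41.4), 1417 CPM of Psap (next 1211), 216 CPM of Atp6v0d1 (next 201) and 70.6 CPM of Slc36a1 (next 66.3).

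The other outlying values were spread over libraries. High values were found for Ctsc in Scx-deleted replicate 4 (12.4 CPM, next 4.12), Ctsh in Scx-deleted replicate 3 (80.3 CPM, next 73.7), Cd63 in Scx-deleted replicate 4 (546 CPM, next 503) and Fnip2 in Scx-positive replicate 2 (58.2 CPM, next 54.1). Low values were found for Ctsh in Scx-positive replicate 6 (67.3 CPM, next 76.2), Atp6v1c1 in Scx-deleted replicate 2 (136 CPM, next 146), Atp6v1h in Scx-deleted replicate 2 (174 CPM, next 187), Slc17a5 in Scx-deleted replicate 2 (26.6 CPM, next 29.6) and Cst6 in Scx-deleted replicate 3 (44.5 CPM, next 47.9).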

How the results depend on the processing

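The count of lysosomal genes that were higher, 30 with all libraries, was 27 to 35 with a library left out, 30 with RLE scaling, 28 with upper-quartile scaling, 33 with no filter, 30 with the stricter filter, 32 by DESeq2, 31 by limma-voom and 35 with the offset for GC content and length. The count that were lower, 2, was 1 to 3 with a library left out and 2 or 3 elsewhere; it was 1 when Scx-positive replicate 2 was left out, or Scx-deleted replicate 2, 3 or 4. The median log2 change of 0.27 was 0.25 to 0.31 with a library left out, and 0.31 without Scx-positive replicate 5. Of the 32 called genes 26 were called under each of the 17 alternatives, and Ctsd, Ctsf, Ctsz, Sgsh, Idua and Psap lost the call in at least 1 of them. Of the 10 genes not called 8 gained a call in at least 1: Gaa in 6 alternatives; Asah1, Lgmn, Glb1, Ids and Scarb2 without Scx-positive replicate 5, all but Glb1 in others too; Lamp2 only with the offset for GC content and length; and Ctsc only with no filter (adjusted p = 0.0482). In all these, 0 named genes changed direction while called in either fit. Of the 60 called genes of the other lists 16 lost the call at least once. Among all genes, 1842 were higher, and 2851 with the offset for GC content and length.

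With the replicate number as a block, on numbers 2, 3 and 5, 29 genes were higher and 2 lower, with a median of 0.23. The same 6 libraries without the block, an alternative chosen after seeing the data, gave 25 and 2. Among all genes 1289 were then higher and 1239 lower, against 1585 and 1616 with the block and 1842 and 1902 with all 8 libraries. The deviations of same-numbered libraries from their group means correlated at -0.06, 0.16 and 0.06 for numbers 2, 3 and 5 across genes. Pairs of unlike number gave -0.23 to 0.14, and not every library correlated best with the one of its own number. Whether same-numbered libraries belong together is not stated in the labels and cannot be told from these values. Depth limits Atp6v0d2 and Ctss, which have at most 12 counts in a library.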
